A study of Mus musculus with 2 samples.

Results

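The cells described here are B cells that carried several transcripts of interferon-induced genes, in single-cell RNA sequencing of leukocytes (CD45-positive cells) sorted from mouse tumours. A cell barcode was taken as a B cell when Cd79a, Cd79b and Ms4a1 together made up at least 0.15% of its unique molecular identifiers (UMIs, the counted transcript molecules) and Cd3d, Cd3e and Cd3g together gave at most 1 UMI. It was taken as interferon-stimulated when Ifit1, Ifit3, Rsad2 and Oasl1 together gave at least 2 UMIs, a number called the rule sum below. The rule found 374 such barcodes among 25200 in all. Of these, 370 lay among 4022 B-gated barcodes of the 13962 in the PBM library, and 4 among 207 B-gated barcodes of the 11238 in the Control library. Within the PBM library they were compared with the 3053 B-gated barcodes whose rule sum was 0, and 599 further barcodes had a rule sum of 1.

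Both groups were wild-type C57BL/6 mice carrying MC38 tumours under the skin; MC38 is a colon carcinoma line of the same mouse strain. The PBM group received photobiomodulation, a treatment with light, every day from day 7, the other group is labelled Control, and tumours of both groups were taken on day 14. Immune cells were pooled within a condition into 1 library per group, and the labels used here do not give the number of mice. The labels enter the cell type as tumour cells, although the sort was for CD45. With 1 library per group no test was possible: treatment, pool of animals and library cannot be told apart, and every interval below is an exact 95% interval that covers counting error only.

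Type I interferons bind a receptor made of Ifnar1 and Ifnar2 and act through Jak1 and Tyk2 on STAT proteins, among them Stat2, which join Irf9 in a complex that binds interferon-stimulated response elements in DNA. The genes induced in this way encode proteins that bind foreign RNA, degrade RNA, tag proteins with Isg15 or block viral entry, together with brakes on the pathway such as Usp18. Interferon gamma uses another receptor and raises guanylate-binding proteins and antigen presentation more strongly. In tumours, interferon-responsive states have been described in macrophages, T cells and B cells.

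The upstream sequences of the 4 rule genes are shown first, because a match to the core of the interferon response element was found in some of them and not in others. Ifit1 and Ifit3 encode proteins that bind foreign RNA, Rsad2 encodes viperin, an antiviral enzyme, and Oasl1 encodes a protein of the oligoadenylate synthetase family. The 250 bases before the gene start were taken from RefSeq (GRCm38.p6) and searched on both strands, overlaps allowed, for GAAA, any 2 bases and GAAA again, the core of the interferon-stimulated response element. In the lines below, written 5′ to 3′ on the gene's strand, capitals mark matches. Isg15 and Oas3 are shown beside the rule genes as members of the response that the rule did not read. The windows are chr19:34640639-34640888 (plus strand) for Ifit1, chr19:34583279-34583528 (plus) for Ifit3, chr12:26456453-26456702 (minus) for Rsad2, chr5:114922990-114923239 (plus) for Oasl1, chr4:156200819-156201068 (minus) for Isg15 and chr5:120777660-120777909 (minus) for Oas3.
Ifit1: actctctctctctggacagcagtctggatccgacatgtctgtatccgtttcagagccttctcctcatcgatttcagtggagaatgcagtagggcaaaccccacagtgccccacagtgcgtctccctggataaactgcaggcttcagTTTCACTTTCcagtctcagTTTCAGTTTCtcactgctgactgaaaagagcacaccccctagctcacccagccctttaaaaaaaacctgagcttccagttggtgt
Ifit3: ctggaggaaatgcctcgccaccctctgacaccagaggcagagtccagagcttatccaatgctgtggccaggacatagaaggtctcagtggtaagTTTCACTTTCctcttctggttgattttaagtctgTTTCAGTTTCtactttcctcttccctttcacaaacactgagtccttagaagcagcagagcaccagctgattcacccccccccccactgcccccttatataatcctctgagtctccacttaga
Rsad2: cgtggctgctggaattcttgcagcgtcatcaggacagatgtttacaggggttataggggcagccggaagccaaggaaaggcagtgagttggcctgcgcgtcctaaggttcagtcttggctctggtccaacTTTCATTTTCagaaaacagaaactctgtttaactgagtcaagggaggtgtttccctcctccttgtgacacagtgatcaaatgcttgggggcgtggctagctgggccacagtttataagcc
Oasl1: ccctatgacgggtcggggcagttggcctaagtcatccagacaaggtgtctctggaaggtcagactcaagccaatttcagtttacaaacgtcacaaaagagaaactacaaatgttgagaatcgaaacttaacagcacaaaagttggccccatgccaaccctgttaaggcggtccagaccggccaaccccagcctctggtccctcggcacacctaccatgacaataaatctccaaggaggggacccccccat
Isg15: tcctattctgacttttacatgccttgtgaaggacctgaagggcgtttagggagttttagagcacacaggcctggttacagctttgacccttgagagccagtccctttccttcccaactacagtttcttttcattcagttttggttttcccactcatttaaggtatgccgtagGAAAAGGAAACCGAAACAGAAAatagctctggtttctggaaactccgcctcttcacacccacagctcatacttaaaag
Oas3: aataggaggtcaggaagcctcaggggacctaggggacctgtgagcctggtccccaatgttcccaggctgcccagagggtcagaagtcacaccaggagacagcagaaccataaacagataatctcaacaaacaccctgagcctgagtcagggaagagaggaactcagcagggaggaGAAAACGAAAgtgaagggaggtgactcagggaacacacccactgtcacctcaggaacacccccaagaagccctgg
Ifit1 and Ifit3 each held 2 matches, Rsad2 and Oas3 held 1, Isg15 held 3 that overlap, and the Oasl1 window held none. The nearest match began 85 bases before the start of Ifit1, 122 before Ifit3, 120 before Rsad2, 66 before Isg15 and 75 before Oas3. Among all windows of the RefSeq promoter table, the motif was held by 936 of 27025 (3.46%). A match is a run of letters and was not tested as a binding site. Only exact matches within these windows were searched, so a window without a match does not show that the gene lacks the element.

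The rule sum was low in most interferon-stimulated B cells. In the PBM library 182 of the 370 had a rule sum of 2, 87 had 3, 43 had 4, 47 had 5 to 9 and 11 had 10 or more, with a median of 3 and a highest value of 27. The cells just inside the threshold were thus the most numerous, and the 599 barcodes with a rule sum of 1 just outside it outnumbered all members. Oasl1 was seen in 262 members with 503 UMIs, Ifit3 in 218 with 493, Ifit1 in 95 with 157 and Rsad2 in 70 with 106. A single rule gene supplied the sum in 157 members, 99 of them through Oasl1 and 44 through Ifit3, while 160 carried 2 of the genes, 44 carried 3 and 9 carried all 4. The most frequent pair was Ifit3 with Oasl1, found together in 128 members. The cells were selected on these values, which are given as a description.

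**Figure D1:**
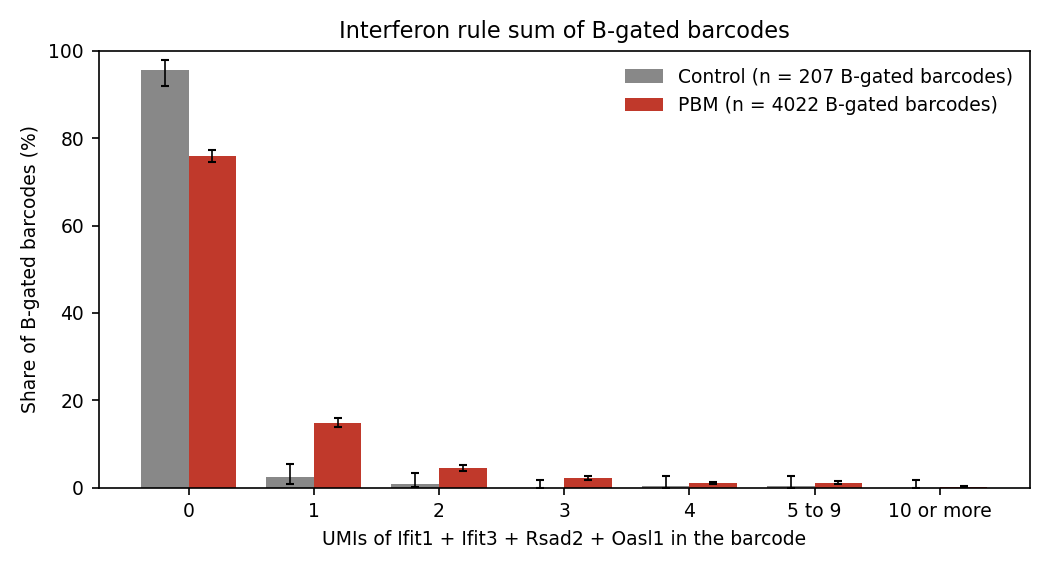
Share of B-gated barcodes (vertical axis, percent) at each rule sum, the UMIs of Ifit1, Ifit3, Rsad2 and Oasl1 in a barcode (horizontal axis), in the Control library (grey, 207 barcodes) and the PBM library (red, 4022 barcodes). Error bars are exact 95% binomial intervals for counting error, and sums of 2 or more, which define the interferon-stimulated cells, form the right-hand tail, 9.20% of the PBM bars in all.

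Interferon-stimulated cells made up 9.20% of B-gated barcodes in the PBM library (8.32% to 10.1%) and 1.93% in the Control library (0.529% to 4.87%). The libraries differed in depth, with a median of 4173 UMIs per B-gated barcode in PBM and 2686 in Control. When each barcode was thinned to 2000 UMIs, which left out 416 PBM and 68 Control barcodes as too shallow, the share was 4.22% (152 of 3606, 3.58% to 4.92%) in PBM. In Control it was then 0.719% (1 of 139, 0.0182% to 3.94%). The thinned intervals overlap, but such an overlap is not a test of a difference. With 1 library per group and 1 Control barcode past the threshold, a difference between the libraries at equal depth was not tested. Barcodes with at least 2 Cd3 UMIs and under 0.05% B cell genes, called T-gated here, met the same rule sum in 16.6% of 5000 cases in PBM and in 4.18% of 3735 in Control. After thinning those shares were 5.22% and 1.38%. Barcodes with macrophage genes met it in 4.60% of 4213 cases in Control and in 2 of only 48 in PBM. None of these 3 classes lacks the rule genes, and other classes were not examined, so the share that free RNA alone would give was not measured here.

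The 4 Control members held too few molecules to describe a state. Their UMI totals were 3395, 3326, 4794 and 9875, and their rule sums 5, 2, 2 and 4. None of the 4 had a UMI of Isg15, Ifit2 or Irf7. Against a floor of 3 UMIs, a count of 0 in their 21390 UMIs allows a level of up to 140 UMIs per 1000000 (CPM, counts per 1000000), below the 218 CPM of Isg15 in the PBM members and above their 81.6 CPM of Ifit2. All 4 carried myeloid transcripts, with 5, 6, 6 and 135 UMIs over an 11-gene macrophage and monocyte list. That list had at least 2 UMIs in 86.4% of the Control B-gated barcodes with a rule sum of 0 too. The part these transcripts have in the Control values was not tested.

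Read over all B-gated barcodes without the rule sum, several interferon-induced genes were at a higher level in the PBM library. Isg15, a ubiquitin-like modifier, stood at 52.4 CPM in PBM (49.1 to 55.9) and at 18.1 in Control (9.35 to 31.6). Irf7, the transcription factor that amplifies type I interferon production, stood at 74.2 CPM in PBM (70.2 to 78.4) and at 16.6 in Control (8.28 to 29.7). Ifi27l2a was at 1232 CPM in PBM and 476.6 in Control, and Usp18 at 17.4 in PBM against 1 UMI in all Control B-gated barcodes. The rule gene Rsad2 was close in both, at 8.75 CPM in PBM (7.41 to 10.3) and 7.54 in Control (2.45 to 17.6). Ifitm3, which blocks viral entry, was lower in PBM, with 54.5 CPM against 288 in Control. The macrophage gene Lyz2 stood at 31.6 CPM in PBM and 1225 in Control B-gated barcodes, and Ifitm3 reached 1522 CPM in macrophage-gated Control barcodes. What part myeloid RNA had in the Ifitm3 difference was not tested. Higher levels in PBM were not particular to B cells. In barcodes with T cell genes, Isg15 was at 134 CPM in PBM and 66.7 in Control, and Irf7 at 66.8 and 25.9. Bst2 was near equal there, at 131 and 128 CPM, and Ly6a was lower in PBM, at 284 against 656.

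The PBM members had the marks of B cells beyond the 3 genes that gated them. Pax5, the factor that maintains B cell identity, had a UMI in 61.1% of members, 59.3% of barcodes with a rule sum of 0 and 9.9% of T-gated barcodes. The T cell receptor gene Trac had a UMI in 26.2% of members and 23.3% of rule-sum-0 barcodes, against 90.4% of T-gated ones. Cd79a was in turn present in 51.8% of T-gated PBM barcodes, at 112 CPM against 3274 CPM in members, so low levels of other cells' genes ran through the library. The label of interferon-stimulated B cells therefore fits the markers in the PBM library, and in the Control library it rests on 4 barcodes.

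Technical measures differed little between the PBM sets. The median was 4362 UMIs and 1336.5 genes per member, and 4123 UMIs and 1274 genes per rule-sum-0 barcode. Mitochondrial transcripts took a median of 0.0189% of UMIs in members and 0.0193% in the others. A UMI of the 13 listed mitochondrial genes was seen in only 58.1% and 56.5% of barcodes, so this measure lay near its floor. Scrublet, a doublet caller, marked 3 members (0.811%) and 1.02% of the rule-sum-0 barcodes. Over all PBM barcodes it marked 6.30%, fewer than the 11.2% expected at the rate set. The B gate had already left out barcodes with more than 1 Cd3 UMI, so these low shares do not show that doublets were absent. The 11-gene myeloid list gave at least 2 UMIs in 31.4% of members and 26.7% of rule-sum-0 barcodes. That list holds Ly6c2, at 195 CPM in members and 129 in the others, and C1qa, at 3.45 and 1.24. Lyz2 (12.6 and 33.1 CPM) and Apoe (133 and 178) on it were lower in members. What part Ly6c2 had in the 2 shares, or in leaving out myeloid barcodes, was not tested. The whole libraries held 86159897 UMIs in PBM and 104673228 in Control, with medians of 5143.5 and 5621.5 per barcode. Their median mitochondrial share over all barcodes was 0.0167% in PBM and 0.143% in Control. The 2 libraries shared 1991 barcode names, 50 of them borne by members, and the names are cell numbers rather than nucleotide sequences.

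Of 4660 genes with a mean level of at least 20 CPM over both sets, 56 were at least 2-fold higher in the PBM members than in rule-sum-0 B cells (1.2% of genes) and 5 at least 2-fold lower (0.107%). The median log2 ratio over all of them was 0.00, and the middle 95% lay between -0.47 and 0.62. The rule genes were left out of this comparison. Of the 56 genes, 43 stood on the lists of interferon-related genes used here. Of all 4660 genes, those lists held 46 antiviral effectors, 14 nucleic acid sensors and adaptors, 18 receptor and signalling genes and 8 interferon gamma targets. All but 3 of the 56 remained 2-fold higher when the barcode with the most UMIs of each gene was left out. Listed interferon genes thus made up most of the differences past this threshold, and most other genes lay close to equality. The lists were chosen with earlier results of these data known, so the count of 43 is not independent of the data.

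**Figure D2:**
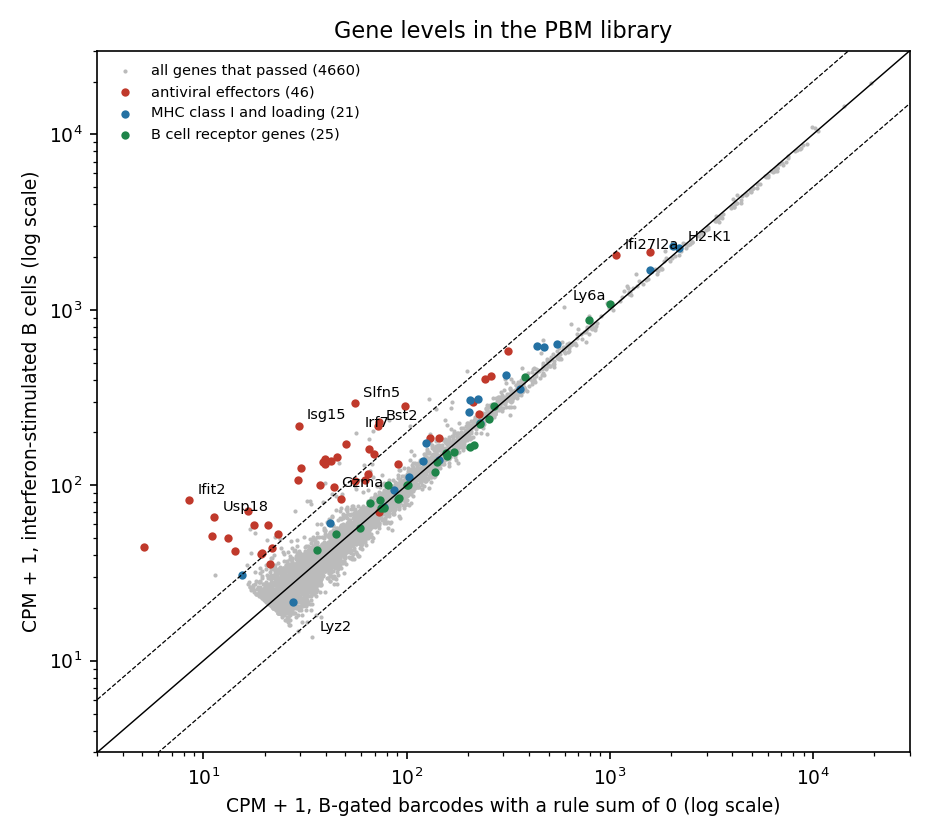
Level of each of 4660 genes in interferon-stimulated B cells (vertical axis, CPM + 1, log scale) against B-gated barcodes with a rule sum of 0 (horizontal axis, CPM + 1, log scale) in the PBM library. The solid line marks equal levels and the dashed lines 2-fold differences; antiviral effectors (red) lie mostly above the upper dashed line, while MHC class I genes (blue) and B cell receptor genes (green) lie along the solid line.

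Among the antiviral effectors, 46 listed genes passed the level filter beside the rule genes, 30 of them were at least 2-fold higher in members and none 2-fold lower. Their median log2 ratio was 1.38, and Ifi27 at -0.05 was the one gene of the 46 below 0. Ifit2 is of the same RNA-binding family as the rule genes Ifit1 and Ifit3. It stood at 81.6 CPM in members and 7.50 CPM in the others (log2 ratio 3.44, 3.06 to 3.83). It was found in 21.9% of members and 2.75% of the others. Isg15 stood at 218 and 28.5 CPM (2.94, 2.73 to 3.15), with a UMI in 34.3% of members and 7.53% of the others. Even for these genes most members had no UMI, which at a median of 4362 UMIs per barcode does not show that they lacked the transcript. Ifit3b reached 43.7 against 4.10 CPM, but it is a near copy of the rule gene Ifit3 and its reads may be shared with it.

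Usp18, which removes Isg15 from proteins and restrains the interferon receptor, stood at 64.9 CPM in members and 10.3 in the others (2.66). Slfn5, of the Schlafen family of growth and antiviral regulators, had the highest level among genes with more than a 4-fold difference, 293 against 54.8 CPM (2.42, 2.25 to 2.59), and a UMI in 49.5% of members. The oligoadenylate synthetases make the messenger that activates RNase L. Oas3 stood at 50.6 against 10.1 CPM (2.33) and Oas1a at 48.8 against 12.2 (2.00). Zbp1, a sensor of Z-form nucleic acids, Isg20, an exonuclease, and Eif2ak2, the kinase PKR that stops translation, had log2 ratios of 1.85, 1.83 and 1.80. Bst2, or tetherin, which holds budding virus at the cell surface, stood at 215 against 71.1 CPM (1.60). The effectors that were already abundant in other B cells differed by less. Ifi27l2a stood at 2053 against 1078 CPM (0.93) and Shisa5 at 2148 against 1578 (0.44). Several families here (Ifit, Oas1, Trim30, Slfn, Ifi200, Gbp) have near-identical members, so the split of reads between them is uncertain.

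The nucleic acid sensors had a median log2 ratio of 0.89 over 14 genes, with 6 of them 2-fold higher and none 2-fold lower. Dhx58 and Ddx58 encode the RNA helicases LGP2 and RIG-I, and stood at 52.3 against 16.9 CPM (1.63) and 77.0 against 33.0 (1.22). The Ifi200 genes on chromosome 1 encode DNA-binding proteins, and Ifi206, Ifi213, Ifi208 and Ifi209 had log2 ratios between 1.17 and 1.59. Ifi209 was the most abundant of them at 445 against 197 CPM. Tlr7, the endosomal receptor of single-stranded RNA, stood at 40.8 against 23.6 CPM (0.79). The adaptor Tmem173, or STING, and the DNA sensor Aim2 had intervals that included equal levels, with log2 ratios of 0.02 and -0.12.

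Within the pathway some transcription factors were higher in members, while others and the receptors had intervals that included equal levels. Irf2, Irf5, Irf8 and Stat3 had log2 ratios of 0.08, 0.03, -0.06 and 0.08, and Irf1 was between at 0.44. Irf7 stood at 198 CPM in members and 55.7 in the others (1.83, 1.64 to 2.02), with a UMI in 46.5% and 17.8% of barcodes. Stat2 stood at 79.3 against 37.7 CPM (1.07) and Irf9 at 111 against 67.4 (0.72). Both encode parts of the complex that carries the type I signal to DNA. The receptor genes showed no such difference: Ifnar1 was at 25.9 and 27.9 CPM (-0.11, -0.59 to 0.34) and Ifnar2 at 45.4 and 55.7 (-0.29, -0.65 to 0.04). Jak1, the kinase bound to the receptor, was at 301 and 306 CPM (-0.02), and Irf3, present before stimulation, at 42.0 and 41.7 (0.01). Over the 18 receptor and signalling genes the median was 0.02, with 3 genes 2-fold higher, Irf7 and Stat2 among them. Socs1, an inhibitor of the pathway, stood at 26.4 against 12.5 CPM (1.08) but missed the level filter. Of the interferon genes themselves the PBM gene list named only Ifng, which gave 4 UMIs in all members and 16 in the others.

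Genes better known as targets of interferon gamma were higher too, though fewer were measured. Of 8 that passed, 4 were 2-fold higher and the median log2 ratio was 0.95. Gbp7, a guanylate-binding protein, stood at 55.2 against 15.9 CPM (1.79), and the immunity-related GTPases Irgm1 and Igtp at 133 against 45.3 (1.55) and 70.1 against 27.2 (1.36). Ciita, the master regulator of MHC class II, was at 248 and 261 CPM (-0.07). MHC class II genes lay at equality, with a median of -0.03 over 13 genes and none 2-fold apart. H2-Ab1 was at 6792 CPM in members and 6794 in the others, and Cd74, the invariant chain, at 14556 and 14278.

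MHC class I genes differed by less than 2-fold with 1 exception, and unevenly among themselves. Nlrc5, the transactivator of class I genes, stood at 29.9 against 14.5 CPM (1.04, 0.57 to 1.49), the only gene of 21 past 2-fold, and the list median was 0.20. The proteasome activator Psme1 was at 625 against 438 CPM (0.51), the peptide transporter Tap1 at 174 against 124 (0.49) and the immunoproteasome subunit Psmb9 at 307 against 224 (0.46). The loading factor Tapbp was at 303 against 205 CPM (0.57). Other supply genes differed less, among them the immunoproteasome subunit Psmb8 at 637 against 552 CPM (0.21) and the transporter Tap2 at 92.5 against 85.3 (0.12), and the trimming enzyme Erap1 was at 20.7 against 26.6 (-0.36, -0.90 to 0.13). Of the heavy chains, H2-K1 was at 2261 against 2193 CPM (0.04) and H2-D1 at 1684 against 1576 (0.10), while the non-classical H2-T23 was at 613 against 473 (0.37, 0.28 to 0.47). B2m, their light chain, was at 2319 against 2038 CPM (0.19).

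**Figure D3:**
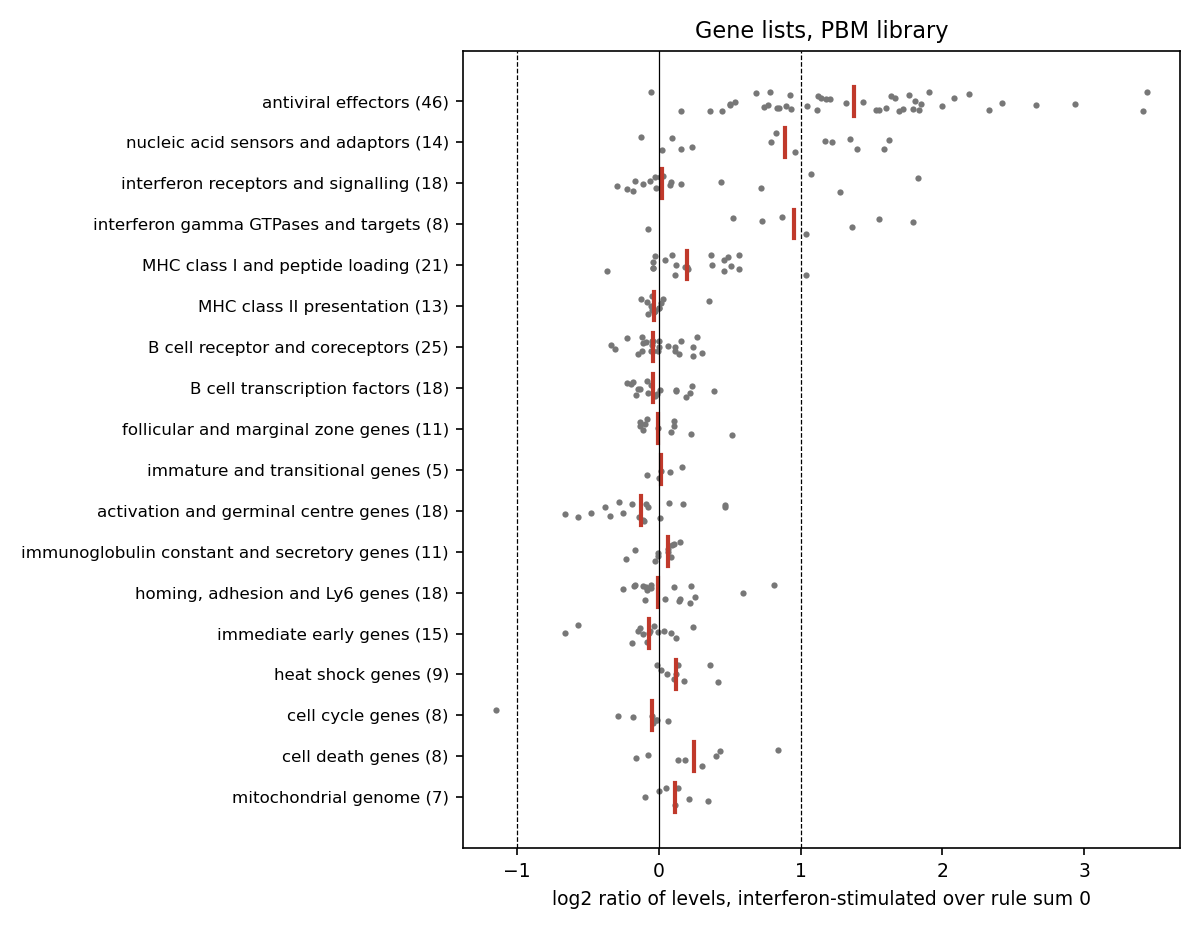
log2 ratio of gene levels in interferon-stimulated over rule-sum-0 B cells of the PBM library (horizontal axis) for the genes of each list that passed the level filter, 1 grey point per gene, with the number of genes in brackets and the list median as a red bar. Dashed lines mark 2-fold differences; the antiviral, sensor and interferon gamma lists have medians of 1.38, 0.89 and 0.95, and the medians of the B cell lists lie near 0.

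Among genes that passed the level filter, B cell identity and maturity genes showed no comparable difference. The 25 genes of the B cell receptor and its coreceptors had a median log2 ratio of -0.04, the 18 B cell transcription factors -0.04 and the 11 follicular and marginal zone genes -0.00, with no gene of these lists 2-fold apart. Thinned to 2000 UMIs, 347 members and 2706 rule-sum-0 barcodes remained. Ighd, the immunoglobulin of mature naive B cells, was then found in 84.7% of members (80.5% to 88.3%) and 82.9% of the others (81.4% to 84.3%). Fcer2a, or CD23, of follicular cells was in 45.8% and 48.6%, and Cr2, or CD21, in 21.3% and 24.5%. Switched constant region genes were in 6.63% and 7.02%. Cd93, a marker of immature B cells, and Mki67, of cycling cells, were each in 0.29% of members, against 1.03% and 0.96% of the others. Vpreb3, related to the surrogate light chain, was in 36.3% (31.2% to 41.6%) and 31.8% (30.1% to 33.6%), and Mzb1, a chaperone of immunoglobulin assembly, in 43.2% and 42.9%. The interval of the members overlapped that of the others for each of these genes. Unthinned, the 5 plasma cell markers summed to 48.8 CPM in members and 67.6 in the others (-0.47, -0.81 to -0.15). Of them Jchain, which missed the level filter, was at 4.02 CPM in members (1.62 to 8.29) and 20.6 in the others (18.2 to 23.2). Few barcodes carried it: 7 members held 7 UMIs, and 41 rule-sum-0 barcodes held 266.

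Smaller differences below 2-fold appeared in a few surface and activation genes. Ly6a, or Sca-1, a known interferon-responsive surface protein, stood at 1042 against 595 CPM (0.81, 0.73 to 0.88) and, after thinning, was found in 78.7% and 59.3% of barcodes. Ly6c2 was at 195 against 129 CPM (0.60) and Plac8 at 673 against 470 (0.52). Cd69, an early activation marker that keeps lymphocytes in tissue, stood at 97.7 against 70.7 CPM (0.47, 0.22 to 0.70). Several other activation genes lay lower in members. The antigen-receptor-induced genes Nr4a1 and Egr1 were at 30.5 against 48.0 CPM (-0.66, -1.09 to -0.25) and 21.3 against 31.5 (-0.57, -1.09 to -0.08), and Cd83 was at 103 against 131 (-0.34). Over 18 activation and germinal centre genes the median was -0.13, with 5 above 0, 13 below and none past 2-fold. The 15 immediate early genes had a median of -0.07, with 4 above 0 and 11 below, and 0.044 with a rule sum of at least 3. Nr4a1 had the lowest ratio of both lists. Cd86, another activation gene, lay higher, at 17.9 CPM (15.6 to 20.3) at a rule sum of 0. It was at 36.1 (18.0 to 64.6) at 5 or more, the latter from 11 UMIs. The cell death genes had a median of 0.25 over 8 genes, and -0.13 with no level filter, so no direction was read for the list. Daxx, itself interferon-responsive, had the highest ratio of the 8, at 97.7 against 54.5 CPM (0.84).

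The 5 genes at least 2-fold lower in members were Lyz2, Stmn1, Ccng2, Pts and Creb3, with log2 ratios from -1.39 to -1.01 and between 22 and 30 UMIs each in members. Each came short of 2-fold under at least 1 alternative: Creb3 was at -0.24 and Pts at -0.64 with a Cd3 sum of 0, Ccng2 at -0.74 and Stmn1 at -0.90 within 3000 to 8000 UMIs. Lyz2, the lysozyme of myeloid cells, was at 12.6 against 33.1 CPM, and with barcodes of 2 or more myeloid UMIs left out its log2 ratio was 0.10. Lyz2 is itself on that myeloid list, so the filter removes barcodes rich in Lyz2 by construction. The macrophage and monocyte list as a whole summed to 352.8 CPM in members and 349.7 in the others, of which Ly6c2 gave 195 and 129 CPM and Apoe 133 and 178 (-0.42). The defining macrophage genes C1qc and Ms4a7 had no UMI in members. C1qa had 6, at 3.45 CPM and in 1.62% of members, against 1.24 CPM and 0.459% of rule-sum-0 barcodes. The T cell marker list summed to 497.7 and 485.5 CPM. Markers of plasmacytoid dendritic cells, a main source of type I interferon, summed to 3.45 and 5.41 CPM, and none of that list passed the filter. Gzma, a granzyme of killer cells, was nominally 2-fold higher (1.07), but 1 member held 129 of its 154 UMIs and the log2 ratio was -1.31 without the top barcodes.

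A further 12 genes were 2-fold higher without standing on any list, and 11 of them are named here after their values were seen, beside Gzma. Ifi47, an interferon-inducible GTPase, stood at 235 against 80.7 CPM (1.54), and Lgals9, the immune lectin galectin-9, at 217 against 103 (1.08). Nampt, an enzyme of NAD synthesis, stood at 49.4 against 21.5 CPM (1.20), and the transcription factor Zeb2 at 33.9 against 15.3 (1.15). Ifi214 and Trim30b belong to the Ifi200 and Trim30 families (1.32 and 1.29). Tpst1, a tyrosine sulfotransferase (1.08), Nmral1 (1.32), BC051226 (1.05), A330040F15Rik (1.51) and Gm47242 (1.53) were others of the group. Gm47242 lies within the span of A330040F15Rik, so their reads may be shared.

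The genes past 2-fold lay close to one another more often than the rest. Of the 56, 21 (37.5%) had another of them or a rule gene within 100 kb, against 79 of 4581 other tested genes (1.72%). The Ifit genes lie on chromosome 19, where Ifit2 spans chr19:34550694-34576419 and Ifit1 spans chr19:34640871-34650009 with Ifit3, Ifit1bl1 and Ifit3b between them (GRCm38, GENCODE M21). Other runs were the Ifi200 genes on chromosome 1, Slfn5 and its neighbours on chromosome 11, Oasl2 beside Oasl1 on chromosome 5, and the Trim30 genes on chromosome 7. These runs are families of like genes, so the neighbours are not independent.

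The upstream windows of the genes past 2-fold were read in the same way. Of the 56 genes, 44 had an entry in the RefSeq promoter table, and 21 of the 44 (47.7%) held this response element core within 250 bases before the start. Among the other 3694 tested genes with an entry, 122 (3.30%) did. The motif was present in 5 of 6 genes at least 4-fold higher and in 16 of 38 (42.1%) between 2-fold and 4-fold. The gamma-activated site core TTCNNNGAA, which STAT dimers bind, was found in 8 of the 44 (18.2%), in 257 of the 3694 (6.96%) and in 2197 of all 27025 windows (8.13%). Both strands were searched, and the GAA of this core can lie within a GAAA of the other, so matches of both can overlap.

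Levels of several genes outside the rule were ordered by the rule sum, also below the threshold. The antiviral effectors other than the rule genes took a median of 52.9 per 10000 UMIs in barcodes with a rule sum of 0, 66.9 at 1, 85.6 at 2, 119 at 3 to 4 and 151 at 5 or more. Isg15 stood at 28.5, 60.5, 111, 221 and 512 CPM over these classes, and Ifit2 at 7.50, 11.8, 32.7, 81.3 and 220. Slfn5 and Irf7 were in the same order, from 54.8 to 611 and 55.7 to 368 CPM. Others did not keep the order: Irf9 stood at 67.4, 83.4, 117, 111 and 95.2 CPM, and Stat2 at 37.7, 49.1, 56.0, 104 and 98.5. The cells thus formed a range with no gap at a rule sum of 2: 199 of 3053 rule-sum-0 barcodes (6.52%) and 98 of 599 with a sum of 1 (16.4%) lay at or above the member median of 104. Depth was similar along the range, with median UMIs of 4123, 4307, 4403.5, 4181 and 4940.

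**Figure D4:**
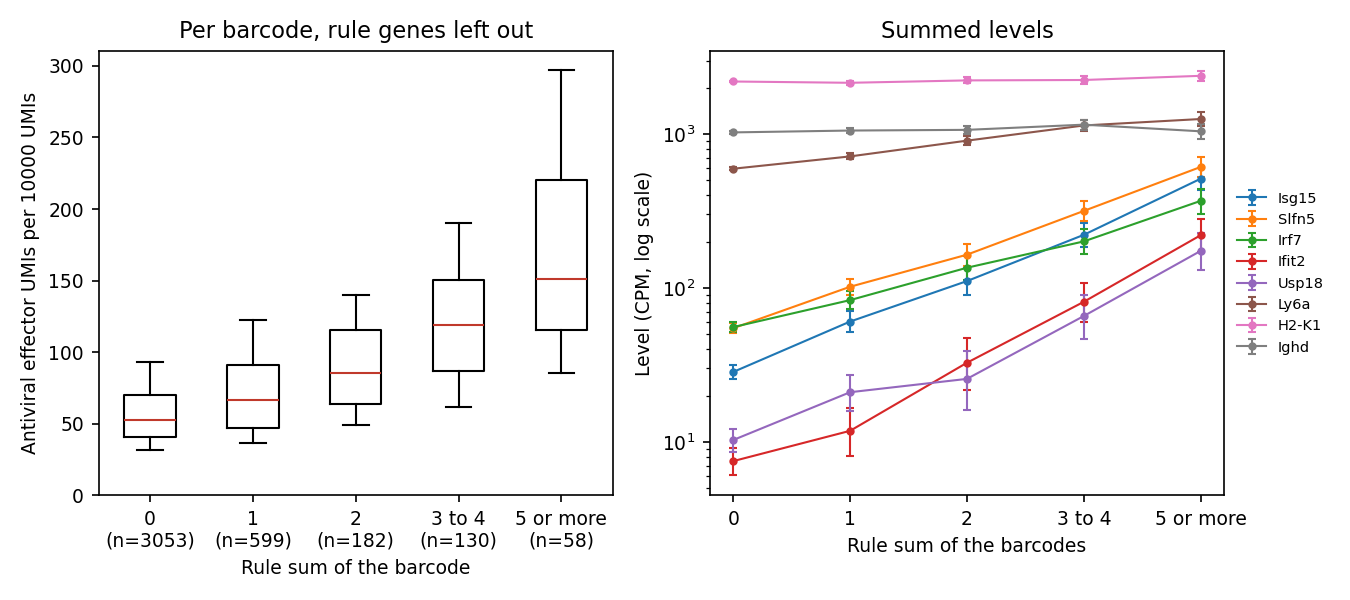
Left, antiviral effector UMIs per 10000 UMIs of each B-gated PBM barcode, rule genes left out, by rule sum; boxes span the quartiles with the median in red, and whiskers the 10th to 90th percentile. Right, summed levels (CPM, log scale) of 8 genes over the same classes with exact Poisson 95% intervals; Isg15, Ifit2, Usp18, Slfn5, Irf7 and Ly6a are higher at higher rule sums, H2-K1 and Ighd are nearly level.

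Surface genes along that range varied. Ly6a stood at 595, 715, 905, 1136 and 1251 CPM, higher in each class than in the one before. H2-K1 was between 2151 and 2387 CPM and Ighd between 1024 and 1150. Cd69 stood at 70.7, 75.2, 51.3, 116 and 194 CPM, so its excess came from rule sums of 3 or more. Ifnar2 was at 55.7 CPM at a sum of 0 and 19.7 (7.2 to 42.9) at 5 or more, the latter from 6 UMIs.

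The same rule sum was also read in T-gated barcodes of the PBM library. In B members Oasl1 gave 40.0% of the rule UMIs and Ifit1 12.5%, while in T-gated barcodes with a rule sum of 2 or more Oasl1 gave 12.9% and Ifit1 41.9%. Ifit3 gave 39.2% and 36.9%, and Rsad2 8.42% and 8.35%. The rule chose both sets, so these shares only describe the chosen cells and support no difference. Over all B-gated and T-gated barcodes, chosen without the rule sum, Oasl1 stood at 43.4 CPM in B and 16.9 in T barcodes, Ifit1 at 14.1 and 50.2, Ifit3 at 40.7 and 47.3.

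Outside the rule genes, the contrast of rule sum 2 or more over 0 was wider in B than in T barcodes for most antiviral effectors. The median log2 ratio over 47 effectors was 1.44 in B and 0.89 in T barcodes, and it was higher in B for 41 of the 47. Ifit2 differed most, at 3.44 in B and 0.93 in T, a difference of 2.52 (2.06 to 2.97, counting error). In T-gated barcodes it stood at 27.7 against 14.6 CPM, compared with 81.6 against 7.50 in B. Tor3a (1.76 and 0.58), Ifitm3 (1.72 and 0.53) and Slfn5 (2.42 and 1.27) followed. Trim25, the ubiquitin ligase that activates RIG-I, was the reverse, at 0.10 in B and 0.77 in T, and Oasl2 stood at 1.64 and 2.02. T-gated barcodes with a rule sum of 2 or more were deeper, with a median of 7348.5 UMIs against 4362, so the same sum is a looser criterion there. With both classes limited to 3000 to 8000 UMIs, a choice made after seeing the data, the effector medians were 1.40 and 1.06 and Ifit2 stood at 3.25 and 1.06. Depth stayed unequal within these limits, with a median of 4522 UMIs in B members and 5635 in T-gated barcodes with a rule sum of 2 or more. The difference between the 2 classes was not tested over replicates.

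**Figure D5:**
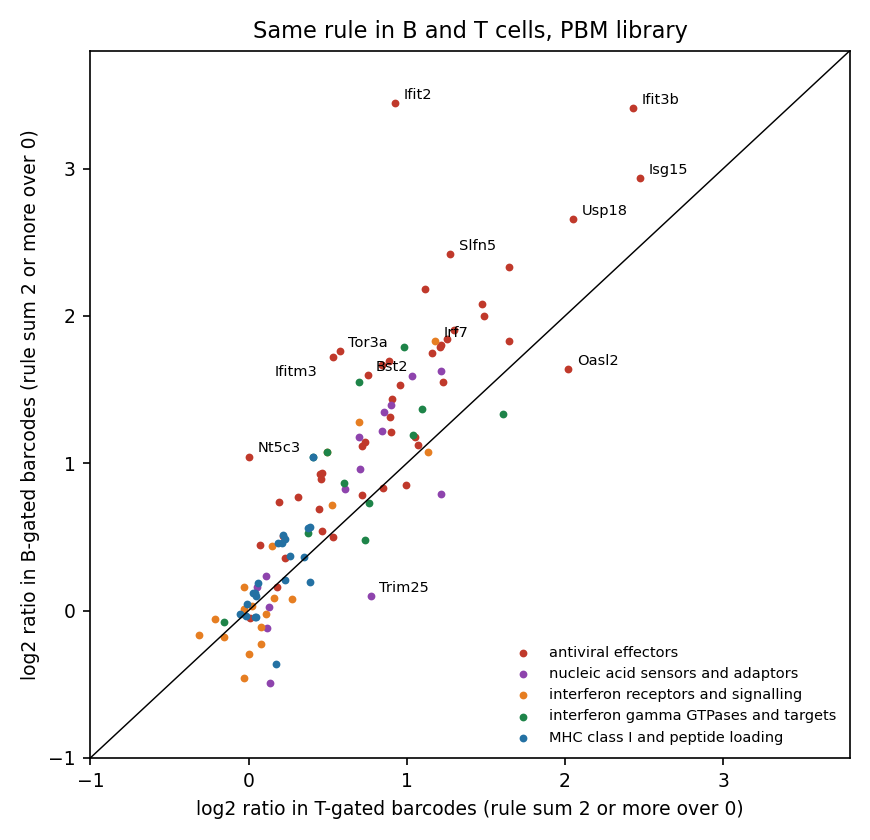
log2 ratio of levels in barcodes with a rule sum of 2 or more over barcodes with a sum of 0, in B-gated (vertical axis) and T-gated (horizontal axis) barcodes of the PBM library, 1 point per gene, coloured by list. The line marks equal ratios; Ifit2 lies farthest above it, at 3.44 against 0.93, and Trim25 lies below it.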

How the data were processed

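The authors deposited 1 matrix of raw, unnormalized UMI counts per library, by gene symbol and barcode. Per the file headers they were written by PISA 0.12, while the submitters' processing notes name Cell Ranger 7.2.0 and mm10. Which program made them, how barcodes were filtered and whether strand was used are not given in the sources used here. Every barcode was kept. Levels are summed counts per 1000000 (CPM) of a set's total, compared as log2 ratios with exact conditional binomial 95% intervals. Poisson and Clopper-Pearson binomial intervals were used for levels and shares. Genes needed a mean of 20 CPM over both sets, and a gene was called at 2-fold, since 1 library per group allows no test. Genes were named if they stood on 1 of the 19 gene lists or 9 marker lists, or were among the 25 highest or 15 lowest log2 ratios. The cells and the lists were chosen with earlier results of these data known. Scrublet (scanpy 1.11.5, 0.8% expected doublets per 1000 barcodes) marked doublets, which were kept except in an alternative. Thinning drew 2000 UMIs per barcode without replacement. T-gated barcodes had at least 2 Cd3 UMIs and under 0.05% B cell genes, and macrophage-gated ones at least 0.3% Lyz2, C1qa, C1qb and Csf1r. Positions came from GENCODE M21 (4637 of 4660 tested genes matched) and promoters from RefSeq GRCm38.p6. The comparison was tested on simulated counts. Mx1, Mx2 and Ifi44l were not analysed here, and a few measured genes are not reported here. Analyses used Python 3.11.15, numpy 2.4.6, scipy 1.17.1 and pandas 2.3.3.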

Additional observations from a re-analysis of the deposited data

How the results depend on the processing

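No paired analysis was possible because each group holds 1 library. The count of 56 higher genes lay within 1.5 times under 9 of 12 alternatives. It was 1176 with no level filter (12770 genes, most of them of few UMIs), 32 at 50 CPM and 88 with a rule sum of at least 3. The 5 lower genes became 608 with no level filter, 0 at 50 CPM, 23 with a Cd3 sum of 0 (187 members), 13 with a rule sum of at least 3, and 9 with at least 2 different rule genes. They became 8 with the top barcode of each gene left out, and 3 under each of 3000 to 8000 UMIs, a B gate at 0.3%, Scrublet doublets left out, myeloid barcodes left out and the mean of per-barcode CPM. The antiviral median of 1.38 was 1.75 with at least 2 different rule genes and 1.80 with a rule sum of at least 3. With a Cd3 sum of 0 the medians were 0.027 for MHC class II, 0.17 for immature genes and 0.13 for immunoglobulin genes. The immediate early median was 0.042 with at least 2 different rule genes and 0.044 with a rule sum of at least 3. The mitochondrial median of 0.12 was 0.41 with at least 2 different rule genes and -0.10 with myeloid barcodes left out. The PBM share was 4.67% with a rule sum of at least 3 and 4.22% when thinned, both stricter by construction. The Control share was 0 (0 of 29) with myeloid barcodes left out. E330020D12Rik changed sign, to 0.013 with a Cd3 sum of 0, and Lyz2 to 0.10 with myeloid barcodes left out; apart from these constructions the cause was not tested. The alternatives with at least 2 different rule genes and without the top barcode were chosen after seeing the data.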
